A study of Mus musculus with 16 samples.

Results

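The genes described here are the upstream machinery of Wnt signalling in mouse liver tumours: the Wnt ligands, their secretion factors, the R-spondins, the secreted antagonists, the Frizzled and Lrp receptors, the β-catenin destruction complex and the Tcf7l1 and Tcf7l2 factors. Members were every gene with a single symbol that starts with Wnt, Fzd, Dkk, Sfrp or Rspo and a digit, together with Frzb, Lrp5, Lrp6, Ctnnb1, Apc, Gsk3a, Gsk3b, Axin1, Csnk1a1, Porcn, Wls, Tcf7l1 and Tcf7l2. This gave 55 of the 18193 genes measured: 19 ligands, 2 secretion factors, 4 R-spondins, 9 antagonists, 12 receptors, 6 proteins of the destruction complex including its substrate, 2 Tcf factors and Fzd10os, an opposite-strand transcript that entered through its symbol.

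RNA of 16 liver samples from male C3H/HeJ mice was read on Affymetrix GeneChip arrays, 1 array per sample. The groups were 7 Ctnnb1-mutated tumours (written Ctnn1b in 1 label) from mice on phenobarbital, 3 non-tumour control livers from mice on phenobarbital, 3 Ha-ras-mutated tumours from mice on plain drinking water and 3 non-tumour control livers from mice on plain drinking water, called untreated controls below. The design text states 1 intraperitoneal injection of the carcinogen DEN, given to mice aged 2 or 6 weeks at 10 or 90 µg per g of weight. In the sample labels phenobarbital was drunk with the water over 27 weeks, whereas the design text gives a diet with 0.05% phenobarbital for 28 to 36 weeks and a protocol text gives 28 days, so the course is uncertain. DEN dose and age at injection are not given per sample, and neither is whether the samples came from separate animals, so p-values measure the spread between samples, which may be in part technical. Mutation and phenobarbital differ together between the 2 tumour types, and their parts in that comparison cannot be told apart.

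In the canonical pathway, a Wnt ligand binds a Frizzled receptor with Lrp5 or Lrp6 and halts the destruction complex, in which Axin and Apc hold β-catenin (Ctnnb1) for phosphorylation by casein kinase 1α and Gsk3. β-Catenin then accumulates and enters the nucleus, where it works with Tcf factors on genes such as Axin2 and Lgr5. R-spondins strengthen the signal by removing the ubiquitin ligases Rnf43 and Znrf3 from Frizzled receptors, and Dkk, Sfrp and Frzb proteins restrain it outside the cell. In healthy liver, Wnt2, Wnt9b and Rspo3 from the endothelium of the central veins, with Rspo3 also made by stellate cells, maintain the pericentral hepatocyte programme. Activating mutations of Ctnnb1 let β-catenin escape destruction without a ligand.

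Values are log2 levels after robust multi-array averaging (RMA), a background correction, quantile normalisation and probe summary that sets all arrays to 1 scale. A level has no fixed zero and cannot be set against the level of another gene. A gene is said to have risen or fallen where its Benjamini-Hochberg adjusted p over all 18193 genes was under 0.05 in limma. Of the 55 members, 39 had a mean level below the median gene (6.21) and 13 lay below the median of their array on all 16 arrays, so small differences of these low members may lie near background. Array medians ran from 5.03 to 5.1. Phenobarbital control 6 stood apart in RNA quality: the 3′ probe set of Gapdh exceeded its 5′ probe set by 2.70 there and by between −0.15 and 0.32 on the other 15 arrays. Where leaving this array out changes a call of a member, both values are given. In comparisons of other groups it enters only through the spread that limma shares over all 4 groups.

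Promoter sequences are shown for Wnt2, Fzd5 and Wnt5b, the 3 members with a sequence at hand that changed by more than 1 log2 unit in Ha-ras tumours. RefSeq start regions of GRCm38.p6 (250 bases before to 50 after a start) were matched for 34 of the 55 members and 12 of the 20 members that passed in any comparison. They are printed 5′ to 3′ on the strand of the gene, in lower case, with motif matches in capitals. The Wnt2 region is at chr6:18030396-18030695 and the Fzd5 region at chr1:64737701-64738000, both on the minus strand. Wnt5b has 3 annotated starts, of which the outermost, at chr6:119544298-119544597, and the innermost, at chr6:119449337-119449636, both on the minus strand, are shown because each holds a match.
Wnt2: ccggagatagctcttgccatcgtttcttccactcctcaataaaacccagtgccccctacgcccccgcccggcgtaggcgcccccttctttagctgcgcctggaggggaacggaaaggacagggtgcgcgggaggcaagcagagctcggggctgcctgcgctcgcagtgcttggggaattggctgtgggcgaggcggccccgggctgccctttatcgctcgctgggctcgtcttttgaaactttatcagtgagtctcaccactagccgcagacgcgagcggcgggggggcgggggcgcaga
Fzd5: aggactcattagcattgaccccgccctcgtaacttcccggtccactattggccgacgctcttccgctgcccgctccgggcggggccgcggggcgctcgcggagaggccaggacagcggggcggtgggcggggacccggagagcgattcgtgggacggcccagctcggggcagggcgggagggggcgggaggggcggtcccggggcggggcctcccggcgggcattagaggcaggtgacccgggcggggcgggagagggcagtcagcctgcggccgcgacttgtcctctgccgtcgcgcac
Wnt5b outermost start: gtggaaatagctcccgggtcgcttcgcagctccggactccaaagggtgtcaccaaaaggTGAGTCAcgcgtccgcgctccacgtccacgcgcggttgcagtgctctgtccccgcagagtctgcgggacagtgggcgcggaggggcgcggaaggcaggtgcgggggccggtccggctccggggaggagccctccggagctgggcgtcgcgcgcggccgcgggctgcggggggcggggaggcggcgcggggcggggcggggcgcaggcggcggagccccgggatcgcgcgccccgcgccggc
Wnt5b innermost start: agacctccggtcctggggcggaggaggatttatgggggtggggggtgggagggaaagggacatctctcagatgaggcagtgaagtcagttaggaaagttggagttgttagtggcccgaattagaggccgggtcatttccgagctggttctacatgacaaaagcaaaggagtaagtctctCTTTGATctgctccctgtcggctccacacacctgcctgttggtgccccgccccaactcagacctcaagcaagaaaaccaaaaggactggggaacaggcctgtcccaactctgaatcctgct

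The motifs searched on both strands were CTTTGAT for TCF/LEF factors, TGANTCA for AP-1 and AGATAA for GATA factors. CTTTGAT was found in 3.73% of 32851 promoters and in 1 of 15 promoters of members that passed, the innermost Wnt5b start, 71 bases before the start. TGANTCA was found in 7.81% of all promoters and in 1 of those 15, the outermost Wnt5b start, 191 bases before it. AGATAA was found in 11.2% of all promoters and in 0 of the 15. The outermost Wnt5b region, with 78% G and C, and the Wnt2 and Fzd5 regions, with 65.7% and 75.7%, were richer in G and C than the median promoter (52.7%), while the innermost Wnt5b region (55%) was close to it.

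Ctnnb1 tumours were first compared with phenobarbital controls. The R-spondins Rspo3 and Rspo1, the ligands Wnt2 and Wnt4, the co-receptor Lrp6 and the antagonist Dkk1 fell, and the ligand Wnt5a rose. These are 7 of 55 members (12.7%), against 12% of all genes that passed in this comparison, so the share is close to the background. Of these 1 rose and 6 fell, against 6.07% and 5.97% of all genes. The median difference was −0.04 over the members and −0.03 over all genes. The count was 4 without phenobarbital control 4, and 5 without control 5 or 6. By array, 5 of the 55 members did not overlap between the 2 groups, against 12.6% of all genes.

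Ha-ras tumours were compared with untreated controls. Rspo3, Rspo1, Wnt2, the ligand Wnt5b, the antagonists Dkk4 and Dkk3 and the receptor Fzd9 fell, and the receptor Fzd5 and Ctnnb1 itself rose. These are 9 of 55 members (16.4%), against 13.5% of all genes, with 7 that fell and 2 that rose, against 6.33% and 7.21% of all genes. The median difference was −0.16 over the members and −0.04 over all genes. Of the 55 members, 42 had a value below 0, a count that was not compared with all genes. Groups did not overlap for 20 members, against 34.8% of all genes. Rspo3, Rspo1 and Wnt2 fell in both tumour types (3 of 55), and 1.59% of all genes fell in both.

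**Figure D1:**
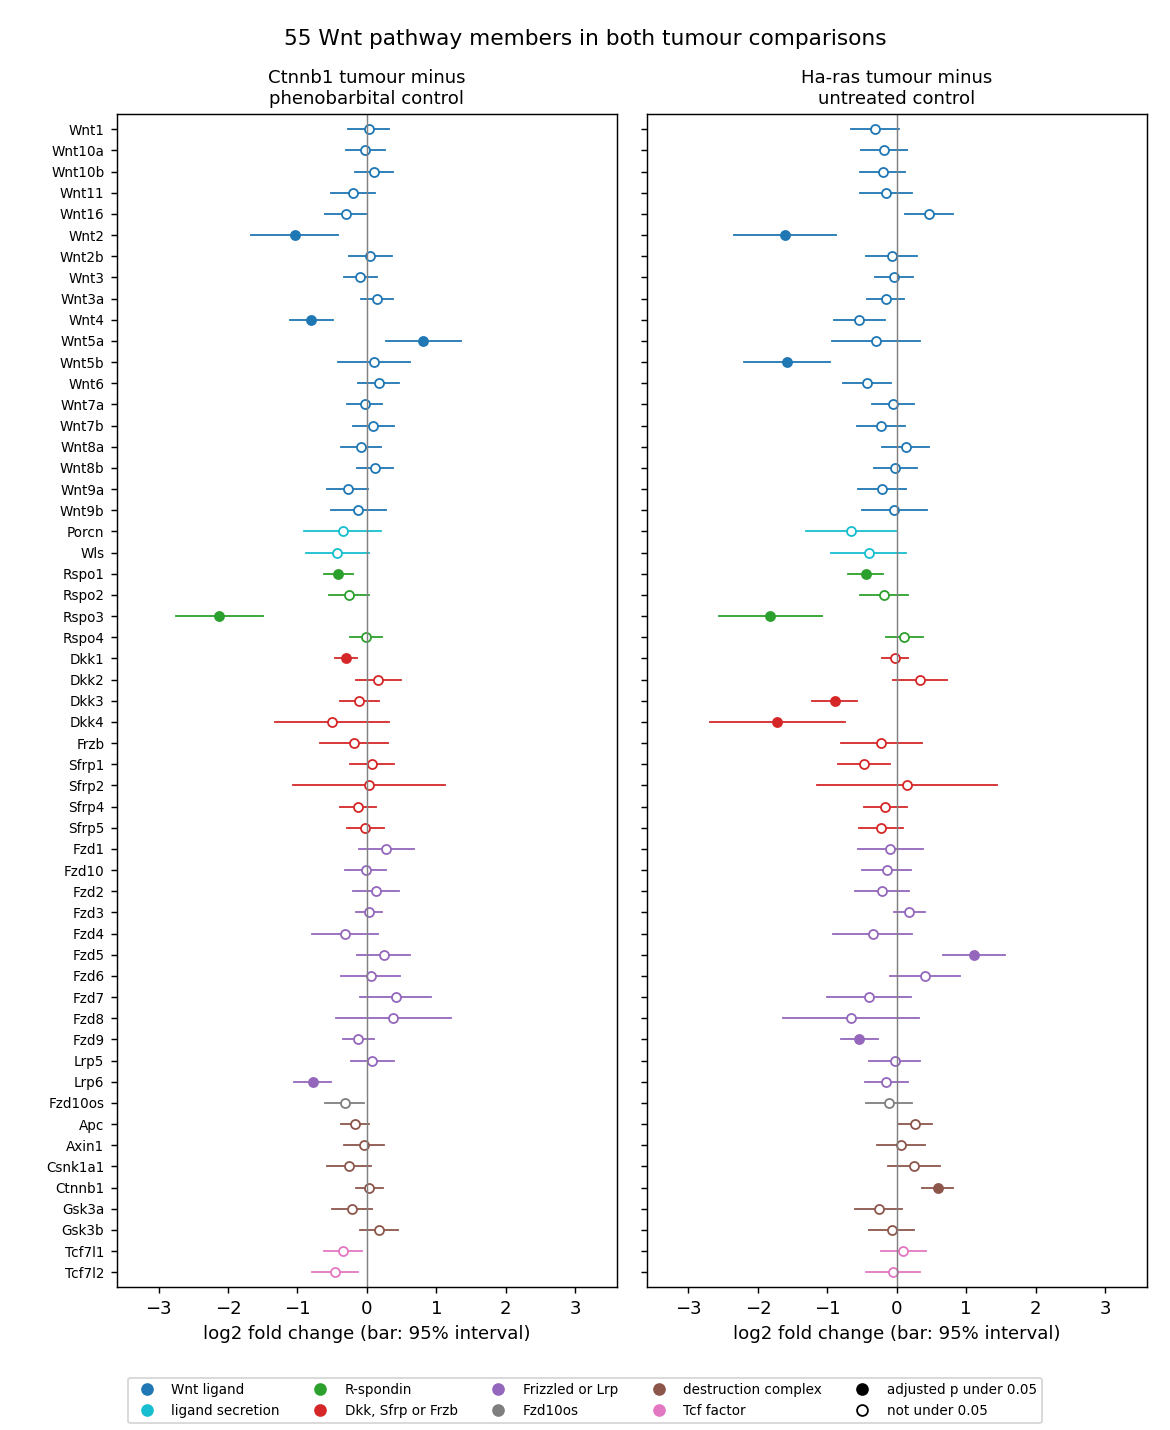
Log2 fold change of each of the 55 members (points, coloured by role) with its 95% interval (bars), in Ctnnb1 tumours minus phenobarbital controls (left) and Ha-ras tumours minus untreated controls (right). Filled points passed at an adjusted p under 0.05: 7 on the left and 9 on the right, with Rspo3 farthest below 0 on both sides (−2.12 and −1.82).

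Among the R-spondins, Rspo3, which amplifies Wnt signals around the central vein, had the largest fall of all members in both tumour comparisons. In Ctnnb1 tumours its level was lowest at 3.56, with a median of 4.53 and a highest value of 4.83, against 6.4, 5.99 and 7.22 in the phenobarbital controls. Every Ctnnb1 tumour lay more than 1 log2 unit below every phenobarbital control. The means were 4.41 ± 0.43 (SD, n = 7) and 6.53 ± 0.63 (SD, n = 3), a log2 fold change of −2.12 ± 0.30 (SE), or 4.36-fold lower (limma, adjusted p = 0.000369).

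In Ha-ras tumours Rspo3 read 3.86, 4.55 and 5.11, against 6.35, 6.18 and 6.47 in untreated controls. These groups did not overlap either, and the change was −1.82 ± 0.35 (SE), or 3.54-fold lower (limma, adjusted p = 0.00211). The change did not differ between the tumour types beyond its error, with a difference of −0.30 ± 0.46 (SE) in the interaction (limma, adjusted p = 0.796). The second Rspo3 probe set, 1443187_at, had a mean level of 3.36 over all arrays and changed by −0.12 and −0.15 in the 2 comparisons (limma over all probe sets, adjusted p = 0.616 and 0.647), so the fall rests on 1 probe set.

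Rspo1, a second R-spondin, sat near the bottom of the scale. It ran from 2.95 through a median of 3.11 to 3.35 in Ctnnb1 tumours, against 3.61, 3.33 and 3.67 in phenobarbital controls, which overlap by 1 array on each side. It read 3.26, 3.13 and 3.27 in Ha-ras tumours, against 3.75, 3.65 and 3.61 in untreated controls, with no overlap. The falls were −0.41 ± 0.10 (SE; limma, adjusted p = 0.0145) and −0.45 ± 0.12 (SE; limma, adjusted p = 0.0178). The first was lost without phenobarbital control 4 (adjusted p = 0.0573) or 6 (0.0772), and the second without untreated control 1 (0.0741) or Ha-ras tumour 2 (0.0757). Rspo2 and Rspo4 did not pass in any comparison, with levels of 5.03 to 5.85 and 4.47 to 4.87.

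Of the 19 ligands, Wnt2, a canonical ligand of the central vein and sinusoidal endothelium, fell in both tumour types. It ran from 4.14 through a median of 4.61 to 5.34 in Ctnnb1 tumours, against 5.91, 6.37 and 5.19 in phenobarbital controls. Phenobarbital control 6 lay inside the range of the Ctnnb1 tumours and the other 2 controls above it. The fall was −1.04 ± 0.29 (SE; limma, adjusted p = 0.0302). It was −1.36 (adjusted p = 0.0173) without phenobarbital control 6, and was lost without phenobarbital control 4 (adjusted p = 0.0855) or 5 (0.135).

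In Ha-ras tumours Wnt2 read 4.48, 5.04 and 5.25, against 6.24, 6.48 and 6.87 in untreated controls. All 3 tumours lay below all 3 controls, by −1.61 ± 0.35 (SE), or 3.05-fold lower (limma, adjusted p = 0.005). Wnt9b, the other canonical ligand of the central vein endothelium, did not pass in either comparison. It ran from 4.86 through a median of 5.23 to 5.36 in Ctnnb1 tumours, against 5.65, 4.74 and 5.43 in phenobarbital controls, a difference of −0.12 ± 0.18 (SE; limma, adjusted p = 0.727). In Ha-ras tumours it read 5.34, 5.34 and 5.25, against 4.96, 5.35 and 5.71 in untreated controls, a difference of −0.03 ± 0.22 (SE; limma, adjusted p = 0.951), and the groups overlapped in both comparisons.

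Wnt4, a ligand with canonical and non-canonical roles, ran from 4.96 through a median of 5.1 to 5.15 in Ctnnb1 tumours, against 6.14, 5.29 and 6.23 in phenobarbital controls. The tumours were nearly uniform and all lay below the controls, by −0.80 ± 0.15 (SE; limma, adjusted p = 0.00257). The fall did not pass with the replicate number as a fixed block (−0.79; limma, adjusted p = 0.0568). A second probe set, 1441687_at, gave −0.62 (adjusted p = 0.0203), and −0.50 (0.118) without phenobarbital control 6. In Ha-ras tumours Wnt4 read 5.07, 5.09 and 5.02, against 5.66, 5.54 and 5.59 in untreated controls. These groups did not overlap, but the difference of −0.54 ± 0.17 (SE) just missed the threshold (limma, adjusted p = 0.051), and passed without phenobarbital control 6 (0.0246).

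Wnt5b, a ligand known mainly for non-canonical signalling, was set apart in Ha-ras tumours. It read 4.0, 4.12 and 3.73 there, against 6.29, 5.14 and 5.16 in untreated controls, with every tumour more than 1 log2 unit below every control. In Ctnnb1 tumours it ran from 5.21 through a median of 5.53 to 5.76, within the phenobarbital controls at 4.95, 5.35 and 6.06. The change was −1.58 ± 0.29 (SE), or 2.99-fold lower, in Ha-ras tumours (limma, adjusted p = 0.00148) and 0.10 ± 0.24 (SE) in Ctnnb1 tumours (adjusted p = 0.842).

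The difference of the 2 Wnt5b changes was 1.68 ± 0.38 (SE) in the interaction (limma, adjusted p = 0.0151), and Ctnnb1 tumours exceeded Ha-ras tumours by 1.60 ± 0.24 (SE; adjusted p = 0.000257). All 3 calls held with every single array left out in turn. The probe set used, 1439373_x_at, is of a kind whose probes may also match other transcripts. A second probe set, 1422602_a_at, passed in the same 3 comparisons, with a fall of −1.20 in Ha-ras tumours (limma over all probe sets, adjusted p = 0.00377) and an interaction of 1.61 (0.0073).

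Wnt5a, the best-known non-canonical ligand, ran from 4.78 through a median of 5.67 to 5.97 in Ctnnb1 tumours, against 4.22, 4.74 and 5.17 in phenobarbital controls. Ctnnb1 tumour 3 lay among the controls. The rise was 0.81 ± 0.25 (SE; limma, adjusted p = 0.0464). Ctnnb1 tumours also exceeded Ha-ras tumours, which read 4.46, 4.94 and 4.58, by 0.86 ± 0.25 (SE; adjusted p = 0.0288). The rise over phenobarbital controls was lost without any 1 of Ctnnb1 tumours 1, 2, 4, 6 or 7 or of phenobarbital controls 4 or 5, with adjusted p up to 0.208. The excess over Ha-ras tumours was lost without any 1 of Ctnnb1 tumours 1 or 4 or of Ha-ras tumours 1 or 3, with adjusted p up to 0.143. The 3 other Wnt5a probe sets did not pass in either comparison. In untreated controls Wnt5a read 5.05, 5.27 and 4.54, and Ha-ras tumours did not differ from them beyond the error (−0.29 ± 0.30, SE; adjusted p = 0.601).

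Wnt16, a ligand with canonical and non-canonical roles, passed in the interaction and between the tumours. It ran from 4.48 through a median of 4.63 to 4.85 in Ctnnb1 tumours, against 4.89, 5.02 and 5.01 in phenobarbital controls, and read 4.90, 5.63 and 4.96 in Ha-ras tumours, against 4.51, 4.76 and 4.82 in untreated controls. Tumours lay below their controls in the first pair and above them in the second. Neither change passed alone (−0.31 ± 0.14, SE, adjusted p = 0.168, and 0.46 ± 0.16, SE, adjusted p = 0.0766; limma), though the second was 0.59 (0.044) without Ha-ras tumour 1, and their difference was −0.77 ± 0.21 (SE; adjusted p = 0.0484). Leaving out 1 array lost the interaction in 12 of 16 runs, phenobarbital control 6 (0.086) among them, with adjusted p up to 0.135. Between the tumours the difference was −0.49 ± 0.14 (SE; adjusted p = 0.0237), and −0.26 (0.2) without Ha-ras tumour 2, the array with the highest value.

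The other 13 ligands did not pass in any comparison. Their lowest and highest values over all arrays were 2.26 for Wnt3 and 6.91 for Wnt7b. The secretion factors Porcn, which adds the lipid that Wnt proteins need, and Wls, which carries them to the cell surface, had values below 0 in both tumour types without passing. Porcn changed by −0.35 ± 0.26 (SE) in Ctnnb1 tumours and −0.65 ± 0.31 (SE) in Ha-ras tumours (limma, adjusted p = 0.422 and 0.189). Wls changed by −0.43 ± 0.21 (SE) and −0.41 ± 0.25 (SE; adjusted p = 0.212 and 0.343).

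**Figure D2:**
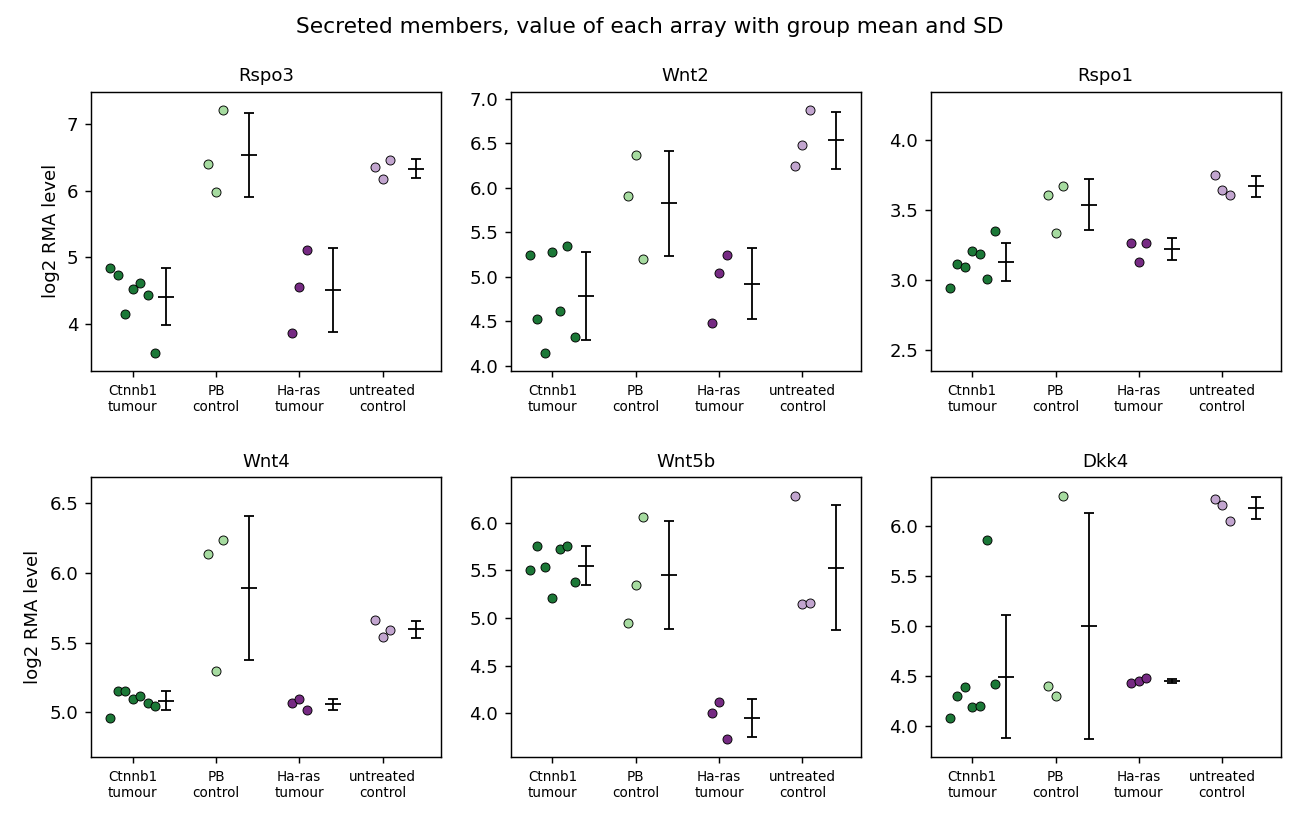
Log2 RMA level of 6 secreted members on each array (points), with the mean and SD of each group beside the points; groups run from Ctnnb1 tumours (n = 7) and phenobarbital (PB) controls (n = 3) to Ha-ras tumours (n = 3) and untreated controls (n = 3). Rspo3 is lower in both tumour types than in their controls, Wnt5b is low in Ha-ras tumours (3.73 to 4.12), and Dkk4 is split within groups.

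The falls of Rspo3, Wnt2 and Wnt4 stood beside lower values of markers of non-parenchymal cells. Of all genes, 5.97% fell in Ctnnb1 tumours and 6.33% in Ha-ras tumours. Of 13 stellate cell and fibroblast markers, 8 fell in Ctnnb1 tumours and 7 in Ha-ras tumours, with medians of −0.99 and −0.80, among them the retinol-storing enzyme Lrat (−2.13 in both) and the matrix protein Dcn (−2.04 and −2.21). Their summed level was 11.38 to 12.28 in Ctnnb1 tumours, against 12.67 to 13.11 in phenobarbital controls, and 11.72 to 12.32 in Ha-ras tumours, against 12.84 to 13.06 in untreated controls. Neither pair of groups overlapped. Of the 13 markers, 10 had a value below 0 in each comparison and 0 passed as higher. Col1a1, Col3a1 and Acta2 averaged 6.05, 9.27 and 8.05 in Ctnnb1 tumours, against 5.52, 9.09 and 7.53 in phenobarbital controls. Reln, Col1a1 and Col3a1 averaged 10.11, 6.23 and 9.64 in Ha-ras tumours, against 9.36, 5.77 and 9.03 in untreated controls. Without phenobarbital control 6, 6 of the 13 fell in Ctnnb1 tumours, with a median of −0.64.

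Of 13 sinusoidal endothelial markers, 3 fell in Ctnnb1 tumours (Stab1, Ptprb and Gpr182) and 0 in Ha-ras tumours, with medians of −0.84 and −0.38. Without phenobarbital control 6, 0 of them passed in Ctnnb1 tumours (adjusted p of Stab1, Ptprb and Gpr182 0.0911, 0.0517 and 0.118; limma), and Lyve1 and Pecam1 passed as higher in Ha-ras tumours. The summed level of the 13 markers was 10.77 to 12.22 in Ctnnb1 tumours, against 12.48 to 12.67 in phenobarbital controls. It was 11.36 to 12.56 in Ha-ras tumours, against 12.70 to 12.82 in untreated controls. The sum weighs the brightest markers most. Their mean log2 level was 6.84 to 8.08 in Ctnnb1 tumours, against 8.12 to 8.49 in phenobarbital controls. In Ha-ras tumours the mean was 7.45 to 8.48, against 8.29 to 8.43 in untreated controls, so these 2 groups overlapped by the mean. Of 10 Kupffer cell markers, 2 fell in Ctnnb1 tumours and 5 in Ha-ras tumours, with summed levels of 11.93 to 12.82 and 10.69 to 12.68, against 12.77 to 13.36 in phenobarbital controls and 12.48 to 13.15 in untreated controls. The 6 hepatocyte markers did not pass in either comparison, with medians of 0.06 in Ctnnb1 tumours and 0.12 in Ha-ras tumours. No marker list read 0 anywhere, since RMA levels have no zero. In whole tissue, fewer cells of a type and less RNA per cell cannot be told apart, and the part of these cell types in the falls of the ligands and R-spondins was not tested.

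Of the 9 antagonists, Dkk3, a divergent member of the Dickkopf family, fell in Ha-ras tumours. It read 4.80, 4.73 and 4.85 there, against 5.46, 5.98 and 5.62 in untreated controls, with no overlap. The change was −0.90 ± 0.15 (SE; limma, adjusted p = 0.000923), and a second probe set, 1417312_at, gave −0.46 (adjusted p = 0.0612, and 0.0376 without phenobarbital control 6). In Ctnnb1 tumours Dkk3 ran from 4.67 through a median of 5.09 to 5.25, against 5.11, 5.24 and 5.09 in phenobarbital controls, a difference of −0.11 ± 0.13 (SE; adjusted p = 0.651). The interaction was 0.79 ± 0.20 (SE; adjusted p = 0.0304), and was lost in 6 of 16 runs that left out 1 array, among them that without phenobarbital control 6 (0.0612), with adjusted p up to 0.0909. Phenobarbital controls lay below untreated controls by −0.54 ± 0.15 (SE), which did not pass (adjusted p = 0.141), and these 2 control groups did not overlap.

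Dkk4, which blocks Lrp5 and Lrp6 and is itself a known β-catenin target, was split into low and high arrays. In Ha-ras tumours it read 4.44, 4.45 and 4.48, against 6.27, 6.21 and 6.05 in untreated controls. In Ctnnb1 tumours the lowest value was 4.09, the median 4.31 and the highest, in tumour 6, 5.86, against 4.40, 4.30 and 6.30 in phenobarbital controls. High values were thus found in all untreated controls, in phenobarbital control 6 and in Ctnnb1 tumour 6, with nothing between 4.48 and 5.86.

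The Dkk4 fall in Ha-ras tumours was −1.72 ± 0.46 (SE), or 3.29-fold lower (limma, adjusted p = 0.0195). It was lost without any 1 of untreated controls 1 or 2 or of Ha-ras tumours 1 or 2, with adjusted p up to 0.0634. The spread that limma uses is shared over all 4 groups and holds the split of the phenobarbital groups. In Ctnnb1 tumours the difference was −0.51 ± 0.39 (SE; adjusted p = 0.443), and 0.14 (0.865) without phenobarbital control 6. Without that array the interaction was 1.86 (adjusted p = 0.0324), against 1.21 (0.3) with all arrays. Phenobarbital controls differed from untreated controls by −1.17 ± 0.46 (SE; adjusted p = 0.274), and by −1.82 (0.0921) without phenobarbital control 6.

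Dkk1, which blocks the same co-receptors, lay at 3.06 to 3.32 with a median of 3.25 in Ctnnb1 tumours, against 3.51, 3.51 and 3.58 in phenobarbital controls. The groups did not overlap, but all values were near the bottom of the scale. The fall was −0.30 ± 0.07 (SE; limma, adjusted p = 0.0152), and was lost without phenobarbital control 6 (adjusted p = 0.0526). A second probe set, 1458232_at, changed by 0.08 (adjusted p = 0.658). Ha-ras tumours, at 3.38, 3.40 and 3.37, did not differ from untreated controls, at 3.43, 3.46 and 3.34, beyond the error (−0.02 ± 0.09, SE; adjusted p = 0.902).

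Sfrp1, a secreted Frizzled-like decoy, read 5.51, 5.18 and 4.75 in Ha-ras tumours, against 5.52, 5.46 and 5.86 in untreated controls, with overlap at the upper end. The difference of −0.47 ± 0.18 (SE) did not pass (limma, adjusted p = 0.0925) unless Ha-ras tumour 1 was left out (−0.65, 0.0268). Another probe set, 1448395_at, gave −0.97 (adjusted p = 0.0339). The remaining probe sets, 1428136_at, 1438620_x_at and 1460187_at, averaged 3.62, 5.54 and 2.70 in Ha-ras tumours. In untreated controls they averaged 4.02, 5.43 and 2.81, so 1438620_x_at was not lower in the tumours. In Ctnnb1 tumours Sfrp1 ran from 5.19 through a median of 5.32 to 5.71, against 5.43, 5.28 and 5.24 in phenobarbital controls (0.07 ± 0.15, SE; adjusted p = 0.811).

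Frzb, a related decoy, did not pass in either tumour type (−0.19 ± 0.23 and −0.22 ± 0.27, SE; limma, adjusted p = 0.653 and 0.679). It ran from 4.47 through a median of 4.56 to 4.95 in Ctnnb1 tumours, against 5.06, 4.63 and 4.90 in phenobarbital controls. In Ha-ras tumours it read 4.61, 3.54 and 5.11, against 4.69, 4.63 and 4.60 in untreated controls. Ha-ras tumours 2 and 3 lay on either side of the 3 controls. Dkk2, Sfrp2, Sfrp4 and Sfrp5 did not pass in any comparison. Sfrp2 ranged from 3.58 to 6.88 over the arrays, with the highest value in phenobarbital control 6. Without that array Ctnnb1 tumours exceeded phenobarbital controls in Sfrp2 by 0.96, which did not pass (limma, adjusted p = 0.176), against 0.03 (0.98) with all arrays. Their excess of 1.05 over Ha-ras tumours then passed (0.0455, against 0.212 with all arrays).

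Among the receptors, Lrp6, the co-receptor that carries the canonical signal, fell in Ctnnb1 tumours. It ran from 8.15 through a median of 8.44 to 8.59 there, against 9.35, 9.23 and 8.90 in phenobarbital controls. Every tumour lay below every control, by −0.78 ± 0.12 (SE), or 1.72-fold lower (limma, adjusted p = 0.000869), and the call held with each array left out in turn. Ctnnb1 tumours also lay below Ha-ras tumours, at 9.13, 8.92 and 9.16, by −0.69 ± 0.12 (SE; adjusted p = 0.000921).

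Ha-ras tumours did not differ in Lrp6 beyond the error from untreated controls, which read 9.34, 9.08 and 9.25 (−0.15 ± 0.14, SE; limma, adjusted p = 0.574). The 2 Lrp6 changes differed by −0.63 ± 0.19 (SE) in the interaction, which did not pass (adjusted p = 0.0669), and by −0.76 without phenobarbital control 6, which passed (0.0254). A second Lrp6 probe set, 1451022_at, did not pass (−0.30, adjusted p = 0.297). Lrp5, the paralogue, had levels of 4.93 to 6.04 and did not pass in any comparison.

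Fzd5, a Wnt receptor, rose in Ha-ras tumours. It read 7.90, 8.42 and 7.96 there, against 6.93, 7.24 and 6.76 in untreated controls. All 3 tumours lay above all other arrays of the study. The rise was 1.11 ± 0.21 (SE), or 2.17-fold higher (limma, adjusted p = 0.00201), and held with each array left out. In Ctnnb1 tumours Fzd5 ran from 6.72 through a median of 7.04 to 7.5, against 6.99, 7.01 and 6.54 in phenobarbital controls, a difference of 0.25 ± 0.18 (SE; adjusted p = 0.42). Ctnnb1 tumours lay below Ha-ras tumours by −1.0 ± 0.18 (SE; adjusted p = 0.00106). The other Fzd5 probe set, 1422937_at, gave 0.44 in Ha-ras tumours (adjusted p = 0.178).

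Fzd6, a receptor of non-canonical signalling and planar polarity, was highest in Ha-ras tumours, at 7.83, 7.77 and 7.66, against 7.19, 7.37 and 7.48 in untreated controls. The groups did not overlap, yet the difference of 0.41 ± 0.24 (SE) did not pass (limma, adjusted p = 0.305). In Ctnnb1 tumours it ran from 6.37 through a median of 6.96 to 7.33, against 7.08, 6.39 and 7.16 in phenobarbital controls. Ctnnb1 tumours lay below Ha-ras tumours by −0.82 ± 0.20 (SE; adjusted p = 0.0099), which was lost without Ha-ras tumour 1 (0.0531). The 2 other Fzd6 probe sets, 1448662_at and 1458904_at, gave −0.27 and −0.21 between the tumours. Neither passed (limma over all probe sets, adjusted p = 0.214 and 0.27).

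Fzd7 went the other way between the tumours. It ran from 7.92 through a median of 8.25 to 8.88 in Ctnnb1 tumours, against 7.36, 7.62 and 7.58 in Ha-ras tumours, an excess of 0.77 ± 0.24 (SE; limma, adjusted p = 0.0413). This was lost in 7 of 10 runs that left out 1 array, among them those without any 1 Ha-ras tumour, with adjusted p up to 0.173. Controls read 8.29, 8.22 and 7.09 under phenobarbital and 7.60, 8.14 and 8.0 untreated, and neither tumour type differed from its controls beyond the error (0.42 ± 0.24 and −0.39 ± 0.28, SE; adjusted p = 0.289 and 0.431). The other Fzd7 probe set, 1450043_at, differed by 0.01 between the tumours (limma over all probe sets, adjusted p = 0.972). The mean of all Fzd7 probe sets gave 0.39, which did not pass (limma, adjusted p = 0.0611).

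Fzd9 fell in Ha-ras tumours, which read 4.71, 4.48 and 4.80, against 5.28, 5.31 and 5.01 in untreated controls. The groups did not overlap, and the change was −0.54 ± 0.12 (SE; limma, adjusted p = 0.00825). It did not pass with the replicate number as a fixed block (limma, adjusted p = 0.0526). In Ctnnb1 tumours Fzd9 ran from 4.59 through a median of 4.79 to 4.99, against 5.01, 4.82 and 4.83 in phenobarbital controls (−0.12 ± 0.11, SE; adjusted p = 0.497). Fzd1, Fzd2, Fzd4, Fzd8, Fzd10 and Fzd10os did not pass in any comparison.

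**Figure D3:**
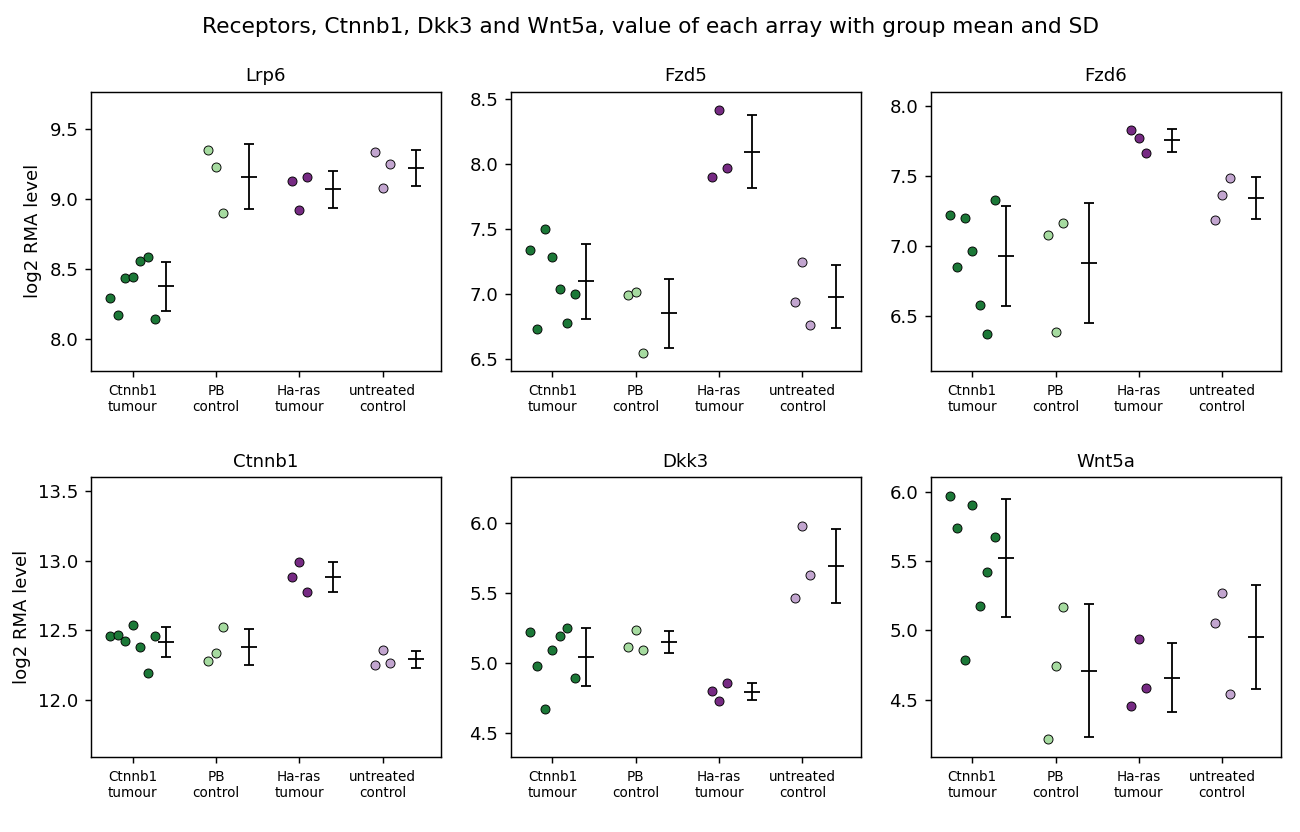
Log2 RMA level of Lrp6, Fzd5, Fzd6, Ctnnb1, Dkk3 and Wnt5a on each array (points), with the mean and SD of each group beside the points; group sizes are 7 Ctnnb1 tumours and 3 in each other group, and PB stands for phenobarbital. Lrp6 is low in Ctnnb1 tumours (8.15 to 8.59), and Fzd5 and Ctnnb1 are high in Ha-ras tumours (7.90 to 8.42 and 12.77 to 12.99).

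Ctnnb1, which encodes β-catenin, was not higher in the tumours that carry its mutation. It ran from 12.20 through a median of 12.46 to 12.54 in Ctnnb1 tumours, against 12.28, 12.34 and 12.53 in phenobarbital controls, a difference of 0.04 ± 0.09 (SE; limma, adjusted p = 0.848; 95% interval −0.15 to 0.23). Array levels report the amount of transcript and not its mutation. In Ha-ras tumours Ctnnb1 read 12.88, 12.99 and 12.77, against 12.25, 12.36 and 12.26 in untreated controls. The groups did not overlap, and the rise was 0.59 ± 0.11 (SE), or 1.5-fold higher (adjusted p = 0.00128), a call that held with each array left out.

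The 2 Ctnnb1 changes differed by −0.55 ± 0.14 (SE) in the interaction (limma, adjusted p = 0.0274), which was lost without phenobarbital control 6 (0.058) and in 4 other runs without 1 array (untreated control 1 or 3, Ha-ras tumour 1 or 2), with adjusted p up to 0.0805. Ctnnb1 tumours lay below Ha-ras tumours by −0.46 ± 0.09 (SE; adjusted p = 0.00182). The 2 other Ctnnb1 probe sets, 1430533_a_at and 1450008_a_at, gave larger values in Ha-ras tumours (0.84 and 0.81), which did not pass with all arrays (limma over all probe sets, adjusted p = 0.354 and 0.0752) and passed without phenobarbital control 6 (0.0158 and 0.00125). Between the tumour types, 1450008_a_at gave −0.71, with an adjusted p of 0.0583 with all arrays and 0.000717 without it. With all arrays, 1430533_a_at gave −0.31 there (limma over all probe sets, adjusted p = 0.747). The mean of all Ctnnb1 probe sets gave −0.50 there (limma, adjusted p = 0.145). In phenobarbital control 6 probe sets 1430533_a_at and 1450008_a_at read 4.73 and 8.36, against 7.19 and 9.68 in control 4 and 7.46 and 9.80 in control 5. Without that array their differences between Ctnnb1 tumours and phenobarbital controls were 0.28 and 0.15 (adjusted p = 0.523 and 0.626).

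Within the destruction complex, Apc, the scaffold lost in many intestinal tumours, did not pass against the controls. It ran from 7.91 through a median of 8.05 to 8.26 in Ctnnb1 tumours, against 8.14, 8.13 and 8.43 in phenobarbital controls (−0.17 ± 0.10, SE; limma, adjusted p = 0.278). It read 8.24, 8.37 and 8.51 in Ha-ras tumours, against 8.18, 8.06 and 8.09 in untreated controls (0.26 ± 0.11, SE; adjusted p = 0.154). Ctnnb1 tumours lay below Ha-ras tumours by −0.31 ± 0.10 (SE; adjusted p = 0.04), which was lost in 8 of 10 runs without 1 array, with adjusted p up to 0.183. Another Apc probe set, 1435543_at, was lower in Ctnnb1 tumours than in phenobarbital controls (−0.81, adjusted p = 0.0186), but gave −0.51 (0.124) without phenobarbital control 6.

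Axin1, the limiting scaffold, ran from 6.86 through a median of 7.25 to 7.41 in Ctnnb1 tumours, against 7.56, 7.32 and 6.99 in phenobarbital controls. In Ha-ras tumours it read 7.01, 7.25 and 7.20, against 7.01, 7.32 and 6.95 in untreated controls. Neither difference passed (−0.04 ± 0.14 and 0.06 ± 0.16, SE; limma, adjusted p = 0.875 and 0.87), and the groups overlapped in both.

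Gsk3b, a kinase that marks β-catenin for destruction, ran from 8.26 through a median of 8.34 to 8.89 in Ctnnb1 tumours, against 8.05, 7.99 and 7.94 in Ha-ras tumours. The tumour types did not overlap and differed by 0.44 ± 0.13 (SE; limma, adjusted p = 0.0322), a call lost without Ctnnb1 tumour 1 or any 1 Ha-ras tumour, with adjusted p up to 0.101. Controls read 8.22, 8.07 and 8.48 under phenobarbital and 8.11, 7.99 and 8.10 untreated. On the probe set used, neither tumour type passed against them (0.18 ± 0.13 and −0.07 ± 0.15, SE; adjusted p = 0.428 and 0.825). The mean of all Gsk3b probe sets rose in Ctnnb1 tumours by 0.33 (limma, adjusted p = 0.029). Of 5 other probe sets, 1 passed between the tumours (1451020_at, 0.64; limma over all probe sets, adjusted p = 0.00578). There 3 did not pass and 1 turned its sign. Gsk3a and the casein kinase Csnk1a1 did not pass in any comparison, with levels of 8.38 to 9.44 and 10.13 to 11.18.

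Tcf7l1, a Tcf factor that mostly represses, ran from 6.54 through a median of 6.73 to 6.98 in Ctnnb1 tumours, against 6.95, 7.06 and 7.18 in phenobarbital controls. Only Ctnnb1 tumour 5 reached the controls, and the difference of −0.35 ± 0.13 (SE) did not pass (limma, adjusted p = 0.0946). Ha-ras tumours, at 7.74, 7.22 and 7.09, exceeded all Ctnnb1 tumours, which lay lower by −0.63 ± 0.13 (SE; adjusted p = 0.00301). They did not differ beyond the error from untreated controls at 7.22, 7.16 and 7.38 (0.10 ± 0.15, SE; adjusted p = 0.758).

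A second Tcf7l1 probe set, 1450117_at, gave a larger difference. It ran from 5.00 to 5.58 in Ctnnb1 tumours, against 6.65, 6.29 and 7.42 in phenobarbital controls, a change of −1.49 (limma over all probe sets, adjusted p = 0.000268), and −1.17 (0.000793) without phenobarbital control 6. Tcf7l2, the main Tcf factor of hepatocytes, ran from 7.16 through a median of 7.48 to 7.96 in Ctnnb1 tumours, against 7.90, 8.01 and 8.06 in phenobarbital controls. Ctnnb1 tumour 3 alone overlapped the controls, and the difference of −0.46 ± 0.15 (SE) did not pass (adjusted p = 0.0634) until that tumour was left out (−0.53, 0.0242). In Ha-ras tumours Tcf7l2 read 7.75, 7.70 and 8.29, against 7.79, 8.11 and 7.99 in untreated controls (−0.05 ± 0.18, SE; adjusted p = 0.903). Another probe set, 1429427_s_at, gave −0.55 there (adjusted p = 0.0504, and 0.0484 without phenobarbital control 6).

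Fzd3, a receptor of planar polarity, differed most between its probe sets. On the probe set used, 1449730_s_at, it read 4.88, 4.84 and 4.97 in Ha-ras tumours, against 4.81, 4.52 and 4.81 in untreated controls, a difference of 0.18 ± 0.10 (SE) that did not pass (limma, adjusted p = 0.293). Probe set 1450135_at read 5.41, 5.32 and 5.56 in Ha-ras tumours, against 3.30, 3.30 and 3.68 in untreated controls, a rise of 2.00 (limma over all probe sets, adjusted p = 1.74e-07).

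Fzd3 probe set 1434788_at also rose in Ha-ras tumours, with 4.71, 5.61 and 5.06, against 3.90, 4.04 and 4.04 in untreated controls (1.13, adjusted p = 0.000436). On both of these probe sets Ha-ras tumours lay above all other arrays, while Ctnnb1 tumours did not differ from phenobarbital controls beyond the error (−0.08 and −0.31 without phenobarbital control 6, adjusted p = 0.828 and 0.355). The remaining Fzd3 probe sets, 1420087_at, 1421157_at and 1438101_at, showed no such rise. They averaged 3.37, 4.62 and 2.49 in Ha-ras tumours, against 3.36, 4.55 and 2.65 in untreated controls. The probe set used was chosen for its highest mean level and not for its response. On it, Ctnnb1 tumours, at 4.45 to 4.66, lay below Ha-ras tumours by −0.31 ± 0.09 (SE; adjusted p = 0.0238), a call lost without any 1 Ha-ras tumour (up to 0.0989).

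**Figure D4:**
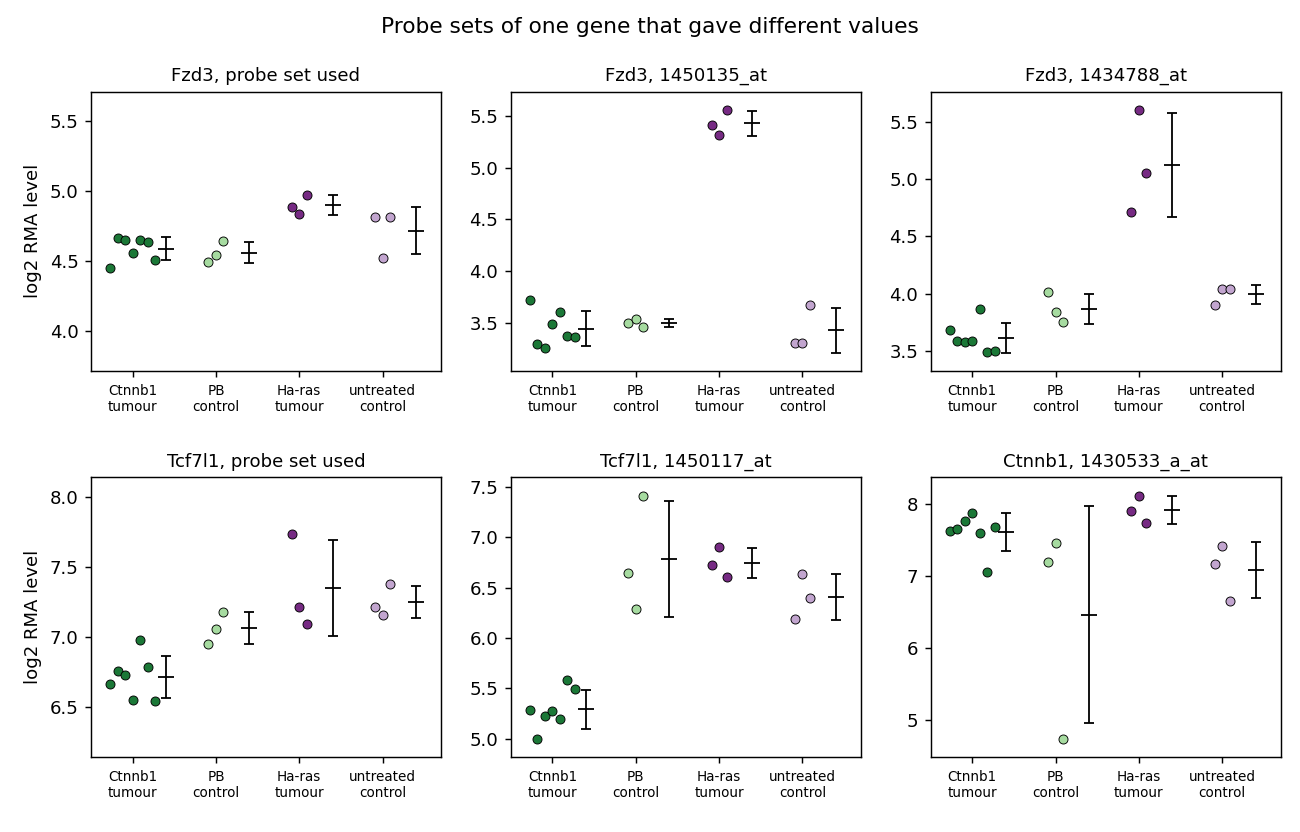
Log2 RMA level on each array (points), with the mean and SD of each group, for Fzd3, Tcf7l1 and Ctnnb1 probe sets that differ from one another; group sizes are 7 Ctnnb1 tumours and 3 in each other group, and PB stands for phenobarbital. The 2 further Fzd3 probe sets shown are high in Ha-ras tumours, and the remaining Fzd3 probe sets are not shown. Tcf7l1 1450117_at is low in Ctnnb1 tumours, and phenobarbital control 6 is the single low point of Ctnnb1 1430533_a_at (4.73).

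Between the tumour types, Ctnnb1 tumours exceeded Ha-ras tumours in Wnt5b, Wnt5a, Fzd7 and Gsk3b and lay below them in Fzd5, Fzd6, Fzd3, Lrp6, Tcf7l1, Wnt16, Ctnnb1 and Apc. These are 12 of 55 members (21.8%), against 15.1% of all genes, with 4 higher and 8 lower, against 7.21% and 7.9% of all genes. Of the 12 receptors, 1 was higher and 4 were lower. The count was 7 without any 1 Ha-ras tumour. The changes against controls differed between the tumour types for 4 members (7.27%, against 5.43% of all genes): Wnt5b and Dkk3 had the higher change in Ctnnb1 tumours, and Wnt16 and Ctnnb1 the lower one, against 2.14% and 3.29% of all genes. That count was 1 without untreated control 3 or without Ha-ras tumour 2. Phenobarbital controls and untreated controls differed in 0 members by limma, against 0.214% of all genes in either direction and 0.0824% that passed as lower. At an unadjusted p under 0.05 in limma there were 5 of 55 members (Wnt6, Dkk3, Dkk4, Fzd2 and Fzd9, all lower under phenobarbital). Of all genes, 13.6% reached that threshold in either direction, and 6.4% of all genes reached it as lower. The 2 tumour comparisons against controls have no array in common but share 1 estimate of the spread. The other comparisons use the same arrays again, so the counts are not independent.

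The rest of the pathway was read from lists of genes outside the membership rule. Beside the counts below, 12% of all genes passed in Ctnnb1 tumours and 13.5% in Ha-ras tumours. Some genes, Axin2 among them, are in more than 1 list. Of 13 feedback and target genes of β-catenin, 8 rose in Ctnnb1 tumours (Axin2, Lgr5, Myc, Rnf43, Sp5, Tbx3, Tnfrsf19 and Znrf3) and 0 fell, with a median change of 1.17 against −0.03 for all genes. Ctnnb1 tumour 6 stood apart: the mean level of the list was 6.98 there and 8.01 to 8.58 in the other 6 Ctnnb1 tumours, against 6.58 to 7.35 in phenobarbital controls. Without that tumour 9 rose, Notum being added, and without phenobarbital control 6 the number was 6, with Axin2, Sp5 and Znrf3 lost and Ccnd1 added. In Ha-ras tumours the cell cycle gene Ccnd1 rose and Tbx3 and Znrf3 fell, with a median of −0.71 against −0.04. Lgr5, the R-spondin receptor, averaged 8.33 ± 1.23 in Ctnnb1 tumours (SD, n = 7) and 5.76 ± 0.89 in phenobarbital controls (SD, n = 3), a rise of 2.57 ± 0.58 (SE; limma, adjusted p = 0.00973). It averaged 4.48 ± 0.38 in Ha-ras tumours and 6.10 ± 0.07 in untreated controls (SD, n = 3 each), which did not pass. Axin2, the inducible scaffold of the destruction complex, rose by 1.27 ± 0.39 (SE; adjusted p = 0.0423) in Ctnnb1 tumours, and by 1.49 (0.0589) without phenobarbital control 6, which did not pass.

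The list of R-spondin receptors and the membrane ligases they act on had 5 genes. Lgr5, Rnf43 (1.23 ± 0.26, SE; limma, adjusted p = 0.00663) and Znrf3 (0.88 ± 0.23, SE; adjusted p = 0.0191) rose in Ctnnb1 tumours, although Znrf3 did not pass without phenobarbital control 6 (0.83, 0.0789). The receptors Lgr4 (−0.18 ± 0.15, SE) and Lgr6 (−0.32 ± 0.13, SE) did not pass there (adjusted p = 0.509 and 0.128). In Ha-ras tumours Znrf3 fell (−0.96 ± 0.27, SE; adjusted p = 0.0246) together with Rspo3 and Rspo1. The Znrf3 changes differed by 1.84 ± 0.35 (SE) in the interaction (adjusted p = 0.00468) and the Lgr5 changes by 4.19 ± 0.90 (SE; adjusted p = 0.0112).

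Of 9 other secreted inhibitors, 0 passed against controls in either tumour type by limma. Without Ctnnb1 tumour 6, Notum (1.12, adjusted p = 0.000736) and Wif1 (3.33, 0.0117) passed as higher in Ctnnb1 tumours and Notum as lower in Ha-ras tumours (−1.01, 0.00251). Notum, which strips the lipid from Wnt proteins, and Wif1, which binds them, were higher in Ctnnb1 than in Ha-ras tumours, by 2.18 ± 0.30 and 3.16 ± 0.91 (SE; limma, adjusted p = 8.74e-05 and 0.0271). Of 11 co-receptors and genes of planar polarity, Celsr1 and Prickle1 fell in Ctnnb1 tumours. In Ha-ras tumours Celsr2 (1.87 ± 0.22, SE; adjusted p = 3.89e-05) and Vangl1 (0.67 ± 0.15, SE; adjusted p = 0.00635) rose and Prickle1 fell.

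Of 18 Dishevelled proteins, kinases and other cytoplasmic regulators, Axin2 rose and Dvl1 and Frat2 fell in Ctnnb1 tumours, and Csnk1g2 and Tnks2 rose in Ha-ras tumours. Axin2 and Dvl1 did not pass without phenobarbital control 6, whereas Csnk1e then rose in both tumour types and Fbxw11 in Ha-ras tumours. Dvl1, Frat2 and Tnks2 did not pass without Ctnnb1 tumour 6. Of 14 nuclear partners, Cby1 rose and Ctnnbip1, Tle4 and Chd8 fell in Ctnnb1 tumours, and 0 passed in Ha-ras tumours. Tle4 and Chd8 did not pass without phenobarbital control 6 (adjusted p = 0.0657 and 0.123). Ctnnbip1, which blocks the binding of β-catenin to Tcf factors, averaged 5.58 ± 0.33 in Ctnnb1 tumours (SD, n = 7) and 7.05 ± 0.38 in phenobarbital controls (SD, n = 3). Its change there was −1.46 ± 0.19 (SE; limma, adjusted p = 0.000256). It averaged 7.36 ± 0.09 in Ha-ras tumours and 6.92 ± 0.28 in untreated controls (SD, n = 3 each), which did not pass.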

How the data were processed

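Affymetrix arrays, 1 per sample, gave RNA levels in 16 samples of mouse liver. The deposited values are log2 levels per probe set, made by the authors with RMA in R 2.14.1, per the submitters' processing notes; the array build and annotation version are not given in the sources used here. All 45101 probe sets were read without further scaling. They were named from the platform annotation, with 34945 holding 1 symbol, and a gene was represented by its brightest probe set on average, which left 18193 genes. The 55 members had 118 probe sets, and 35 members had more than 1. Hras is not reported here.

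Tests used limma 3.58.1 in R 4.3.3 (a mean for each of the 4 groups fitted by lmFit to all 16 arrays, moderated by eBayes), with Benjamini-Hochberg adjustment over all 18193 genes and a threshold of 0.05. Other probe sets of a member were adjusted over all 45037 probe sets that are not array controls. The fit was checked on simulated data. The number of arrays limits the precision. Members and gene lists were chosen with earlier results of these data known. Described with the values of each array were members that passed in any of the 5 comparisons and Ctnnb1, Apc, Axin1, Gsk3b, Wnt2, Wnt9b, Rspo3, Fzd7, Lrp6, Dkk3, Sfrp1, Frzb, Tcf7l1 and Tcf7l2. Summed levels of a marker list are the log2 of its summed linear levels. Further lists of 5 cholangiocyte and 6 lymphocyte markers had 1 and 0 members that passed in Ctnnb1 tumours (1 fell) and 1 and 0 in Ha-ras tumours (1 rose). Alternatives were other sets of arrays, a replicate block, other probe set choices, a filter on dim genes, median centring, eBayes with trend, array weights and each array left out.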

Additional observations from a re-analysis of the deposited data

Results flagged for a closer look

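A single array lay far from the 6 others of the Ctnnb1 tumours for 3 of the 55 members, by Dixon's criterion at the 95% level. Chance alone gives about 1 such array in 20 groups. Wnt8b was high in Ctnnb1 tumour 2, at 3.95, with the next tumour at 3.63. Dkk4 was high in Ctnnb1 tumour 6, at 5.86, with the next tumour at 4.42. Axin1 was low in Ctnnb1 tumour 7, at 6.86, with the next tumour at 7.20.

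The change against controls differed between the tumour types, by the interaction term in limma, for 4 members. The change in Ctnnb1 tumours minus the change in Ha-ras tumours was 1.68 for Wnt5b, 0.79 for Dkk3, −0.77 for Wnt16 and −0.55 for Ctnnb1, with adjusted p of 0.0151, 0.0304, 0.0484 and 0.0274. Wnt5b and Dkk3 fell in Ha-ras tumours and did not pass in Ctnnb1 tumours, and Ctnnb1 rose in Ha-ras tumours and did not pass in Ctnnb1 tumours. Wnt16 did not pass in either tumour type alone.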

How the results depend on the processing

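In Ctnnb1 tumours against phenobarbital controls the count of 7 members became 4 with only the compared arrays, 2 with the replicate number as a fixed block, 3 on the same 12 arrays without that block, 2 with dim genes left out and 4 with 3 arrays omitted jointly (phenobarbital control 6, Ctnnb1 tumours 6 and 7). In Ha-ras tumours against untreated controls, 9 became 2 with dim genes left out, a filter that keeps 16 members. In the interaction, 4 became 1 on the 12 arrays without the block, 1 with dim genes left out, 2 with arrays centred on the median and 8 with array weights. Between controls, 0 became 1 with array weights and 1 with the joint omission. Between tumour types, 12 became 5 on the 12 arrays without the block. Leaving out 1 array gave 4 to 8, 7 to 10, 1 to 4, 0 to 1 and 7 to 13 members in the 5 comparisons. The other settings tried stayed within 1.5 times of the main counts. A similar count need not hold the same members. In the interaction 3 passed with the joint omission, of which 1 was called in the main fit. With the probe set of highest variance 4 passed there, of which 2 were called in the main fit. The joint omission, the fit on the 12 arrays without the block, and gene lists and probe sets without phenobarbital control 6 or Ctnnb1 tumour 6 were chosen after seeing the data.

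Replicate numbers are shared by the groups, and r of their deviations ran from −0.12 to 0.13 under phenobarbital (1 of 3 pairs over 0.1) and from 0.03 to 0.40 without it (2 of 3 pairs over 0.1). For arrays of unlike number r ran from −0.18 to 0.15 under phenobarbital and from −0.32 to 0.07 without it. Without phenobarbital, 2 of the 3 pairs of like number (0.40 and 0.24) thus lay above all pairs of unlike number. Like numbers were not taken as pairs in the main fit, since not every such pair was over 0.1. With the fixed replicate block 7 members passed in Ha-ras tumours, all called in the main fit too. Fzd9 and Rspo1 did not pass there (limma, adjusted p = 0.0526 and 0.0679). In Ctnnb1 tumours Wnt4, Rspo1, Wnt5a, Dkk1 and Wnt2 did not pass with that block (limma, adjusted p = 0.0568, 0.139, 0.141, 0.157 and 0.204). In the interaction 4 passed, of which 2 were called in the main fit. Wnt16 and Ctnnb1 did not pass there (limma, adjusted p = 0.095 and 0.171). With a random block (correlation 0.0465) the counts were 7, 10, 4, 0 and 12.

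Other probe sets turned 10 signs: Dkk1 1458232_at gave 0.0779 in Ctnnb1 tumours and 0.0057 without phenobarbital control 6, and Rspo3 1443187_at gave 0.0297 without that array. Wnt5a 1456976_at gave −0.10 with and −0.15 without it. The Ctnnb1 interaction was 0.31 on 1430533_a_at, which is also its probe set with the highest variance. Between tumour types Apc 1420957_at gave 0.0272, Fzd3 1420087_at 0.0201 and 1438101_at 0.11, and Gsk3b 1434439_at −0.0401. The cause was not tested. Of the values of called members, 239 held and 69 lost their call when 1 array was left out. Under other settings 265 held, 50 lost it and 1 turned its sign. On other probe sets, with or without phenobarbital control 6, only 13 held, 36 lost their call and 10 turned their sign.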

Other observations

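Between the control groups, some members had large differences that did not pass. Fzd2, a Wnt receptor, was lower in phenobarbital controls than in untreated controls by −0.67 ± 0.18 (SE; limma, adjusted p = 0.133), and the 2 groups did not overlap. Wnt6 was lower by −0.43 ± 0.16 (SE; adjusted p = 0.265) and Fzd9 by −0.31 ± 0.12 (SE; adjusted p = 0.283). Sfrp2, a Frizzled-like decoy, differed by 1.17 ± 0.61 (SE; adjusted p = 0.415), and by 0.24 (0.895) without phenobarbital control 6. Groups of controls did not overlap for 9 of the 55 members, against 18.8% of all genes.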
